A study of Mus musculus with 4 samples.

Results

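The glycolysis and hypoxia response genes described here are 35 named genes, of 22072 genes in the deposited tables. They are the sugar and lactate carriers, the enzymes of glycolysis, the enzymes that set the fate of pyruvate, and targets of the hypoxia-inducible factors. The members were found by gene name, and the FPKM values of all transcript entries under a name were summed (fragments per kilobase of transcript scaled to the mapped fragments, a level corrected for length). Of the 35 members, 33 averaged 1 FPKM or more across the 4 libraries and entered the comparisons. Adm, a secreted vasodilator peptide, and Car9, a cell-surface carbonic anhydrase, lay below that level.

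At embryonic day 14, the study compared molar mesenchyme between Msx1-/- mutants and Msx1+/- controls, which carry 1 mutant copy. The sample labels give the controls as Msx1+/-, while the title of the series speaks of wild type. Msx1 is a homeobox transcription factor of the dental mesenchyme. The 4 groups were Msx1-/- upper molars, Msx1+/- upper molars, Msx1-/- lower molars and Msx1+/- lower molars, with 1 library each. All came from a mixed strain background, the mutant allele is not named in the labels, and tissue of 3 pairs was pooled before RNA extraction. Mesenchyme was cut by laser from frozen sections and the cDNA was amplified. Whether the jaws share embryos is not given in the labels, and no group has a replicate, so differences are given as values with no spread.

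Glycolysis splits glucose into pyruvate in the cytosol, and cells with little oxygen or fast growth reduce much of that pyruvate to lactate. Hypoxia-inducible factors are pairs of an oxygen-regulated alpha subunit, such as Hif1a, and the constant partner Arnt. With oxygen present, prolyl hydroxylases of the Egln family mark the alpha subunit for destruction through Vhl. When oxygen is short, the stable factor binds the core letters ACGTG or GCGTG and raises carriers, glycolytic enzymes, Pdk1 and angiogenic signals such as Vegfa.

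The deposited coverage summed to 395 and 264 megabases in Msx1-/- upper and lower molars and to 410 and 324 megabases in Msx1+/- upper and lower molars. The number of genes at 1 FPKM or more ran between 10201 and 10706. Msx1 itself measured 126 and 85.9 FPKM in Msx1-/- upper and lower molars, against 170 and 184 FPKM in Msx1+/- upper and lower molars. Because the allele is not named, these reads cannot be assigned to a part of the gene that the mutation spares. In the lower molars the whole table was shifted. The median difference of all 10536 kept genes, Msx1-/- minus Msx1+/-, was -0.39 in lower and -0.03 in upper molars on the log2(FPKM + 1) scale. For the members past the size rule, lower-molar differences are therefore also given relative to that median. In pooled tissue, fewer cells of a type and less RNA per cell cannot be told apart.

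Slc16a1, the lactate and pyruvate carrier MCT1, and Vegfa, the main growth factor for blood vessels, were the members that were lower in Msx1-/- molars of both jaws. A member is called lower or higher where its difference on the log2(FPKM + 1) scale was at least 1 in size. In upper molars those 2 members were lower and 0 were higher, where 3.26% of all kept genes were lower and 1.07% higher. In lower molars 6 members were lower (Slc16a1, Vegfa, Ldha, Aldoa, Pkm2 and P4ha1) and 1, Ddit4, was higher, against 9.43% and 0.864% of all kept genes. That lower-molar background was 994 genes lower and 91 higher, and it became 370 lower and 214 higher after rescaling by the median of gene ratios. With that rescaling 3 members were lower in lower molars (Slc16a1, Vegfa and Ldha), and with a common total FPKM the lower-molar difference of Vegfa was -0.999. A pseudocount of 5 in place of 1 put Slc16a1 and Vegfa under the size rule, the differences of Slc16a1 being -0.96 and -0.94 and those of Vegfa -0.77 and -0.84 in upper and lower molars. The 2 members lower in both jaws stood beside 1.59% of all kept genes, and 0 members were higher in both, beside 0.399%. As shares of the 33 kept members, these counts were 6.06% lower in upper molars, 18.2% lower in lower molars and 6.06% lower in both.

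The members' median lay near that of the whole table in upper molars and below it in lower molars. Their median difference was -0.04 in upper molars, beside -0.03 for all genes, and -0.56 in lower molars, beside -0.39 for all genes. In lower molars 21 of 33 members lay below the all-gene median. The members' lower-molar median minus that of all genes was -0.17, and -0.22 after rescaling by the median of gene ratios. Both Msx1-/- libraries were below both Msx1+/- libraries for 19 of 33 members, where 41.3% of all kept genes showed that order. Both Msx1-/- libraries were above both Msx1+/- libraries for 3 members (Slc2a1, Egln3 and Ddit4), where 9.52% of all genes did. These orders depend on the scale between libraries: after rescaling by the median of gene ratios, 15 members lay below and 7 above, beside 27.5% and 20.7% of all genes.

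**Figure D1:**
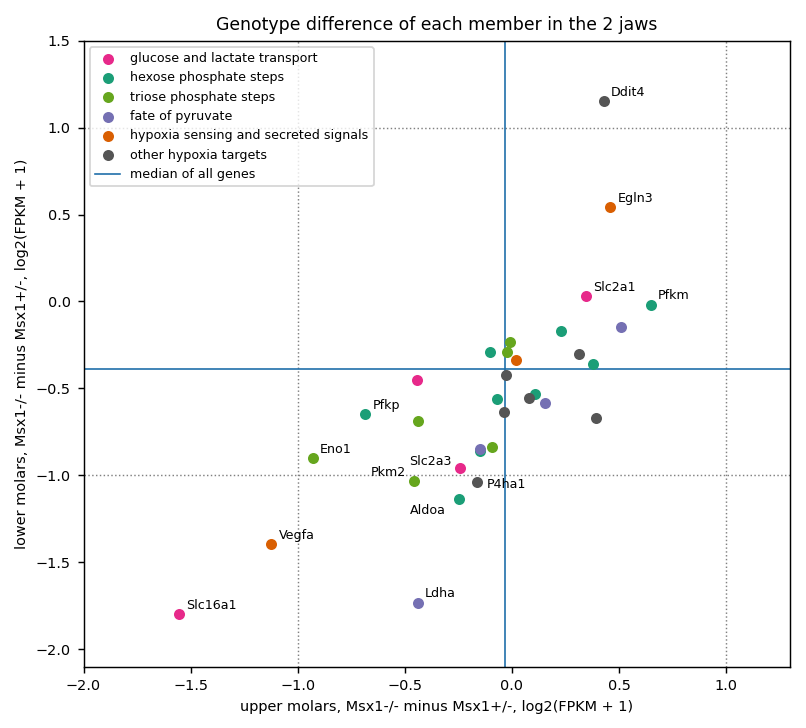
Difference between Msx1-/- and Msx1+/- molars on the log2(FPKM + 1) scale for each of the 33 kept members, with upper molars on the x axis and lower molars on the y axis. Points are coloured by role, dotted lines mark a difference of 1 in size, and blue lines mark the median of all genes. Slc16a1 and Vegfa lie beyond -1 on both axes, and Ddit4 lies above 1 on the y axis.

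Among the carriers, Slc16a1 (mm9 chromosome 3, 104442591 to 104462385) had 2.82 and 1.34 FPKM in Msx1-/- upper and lower molars, against 10.2 and 7.15 FPKM in Msx1+/- upper and lower molars. Both Msx1-/- libraries were below both Msx1+/- libraries. The differences were -1.55 in upper and -1.80 in lower molars on the log2(FPKM + 1) scale, and -1.52 and -1.41 relative to the median of all genes. As a ratio of FPKM, Msx1-/- over Msx1+/-, Slc16a1 stood at 0.276 in upper and 0.188 in lower molars, the lowest ratio among the 33 members in each jaw. Slc16a3, the carrier MCT4 that mostly exports lactate, had 1.58 and 1.24 FPKM in Msx1-/- upper and lower molars, against 2.52 and 2.06 FPKM in Msx1+/- upper and lower molars. Its differences, -0.45 in each jaw, stayed under 1 in size.

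Neither glucose carrier passed the size rule. Slc2a1, the widespread glucose carrier GLUT1 and the most abundant of the 4 carriers, had 16.8 and 15.9 FPKM in Msx1-/- upper and lower molars. It had 13.0 and 15.5 FPKM in Msx1+/- upper and lower molars, so the lower-molar libraries nearly coincided on the deposited scale. Relative to the median of all genes its differences were 0.38 in upper and 0.42 in lower molars. Slc2a3, the high-affinity glucose carrier GLUT3, had differences of -0.24 in upper and -0.96 in lower molars, the second just under the size required. Relative to the median of all genes, Slc2a3 had -0.57 in lower molars. Its lowest level was 1.12 FPKM, in Msx1-/- lower molars, and its highest 3.58 FPKM, in Msx1+/- upper molars.

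The promoter windows of Slc16a1 and Ldha are shown, around the outermost start that the RefSeq table lists. Of the members picked by the rule given with the processing, these 2 were kept because not all their matches lie in exons. That choice was made after the positions of the matches were seen. Both are RefSeq windows of build GRCm38.p6, each 300 bases with 250 before and 50 from the start, on the + strand. Slc16a1 lies at chr3:104638414-104638713 and Ldha at chr7:46845554-46845853. Capitals mark every match to ACGTG or GCGTG on either strand. The palindrome CACGTG holds an ACGTG match on each strand, which overlap.
Slc16a1: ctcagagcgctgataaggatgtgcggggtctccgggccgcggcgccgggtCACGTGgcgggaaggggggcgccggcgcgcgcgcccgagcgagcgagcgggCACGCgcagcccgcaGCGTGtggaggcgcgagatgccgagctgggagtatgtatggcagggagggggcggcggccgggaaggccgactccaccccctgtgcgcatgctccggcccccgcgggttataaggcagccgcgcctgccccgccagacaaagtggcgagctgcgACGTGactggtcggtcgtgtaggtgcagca
Ldha: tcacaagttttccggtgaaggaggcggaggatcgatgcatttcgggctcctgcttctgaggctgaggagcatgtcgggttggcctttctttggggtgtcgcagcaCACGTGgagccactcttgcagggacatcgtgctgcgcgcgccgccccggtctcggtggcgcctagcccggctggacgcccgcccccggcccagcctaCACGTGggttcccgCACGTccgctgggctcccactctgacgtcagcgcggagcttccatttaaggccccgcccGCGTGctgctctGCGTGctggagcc
Slc16a1 held 3 ACGTG and 2 GCGTG matches, with the palindrome at position -200 from the start. Ldha held 5 ACGTG and 2 GCGTG matches, with its palindromes at positions -145 and -48.

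**Figure D2:**
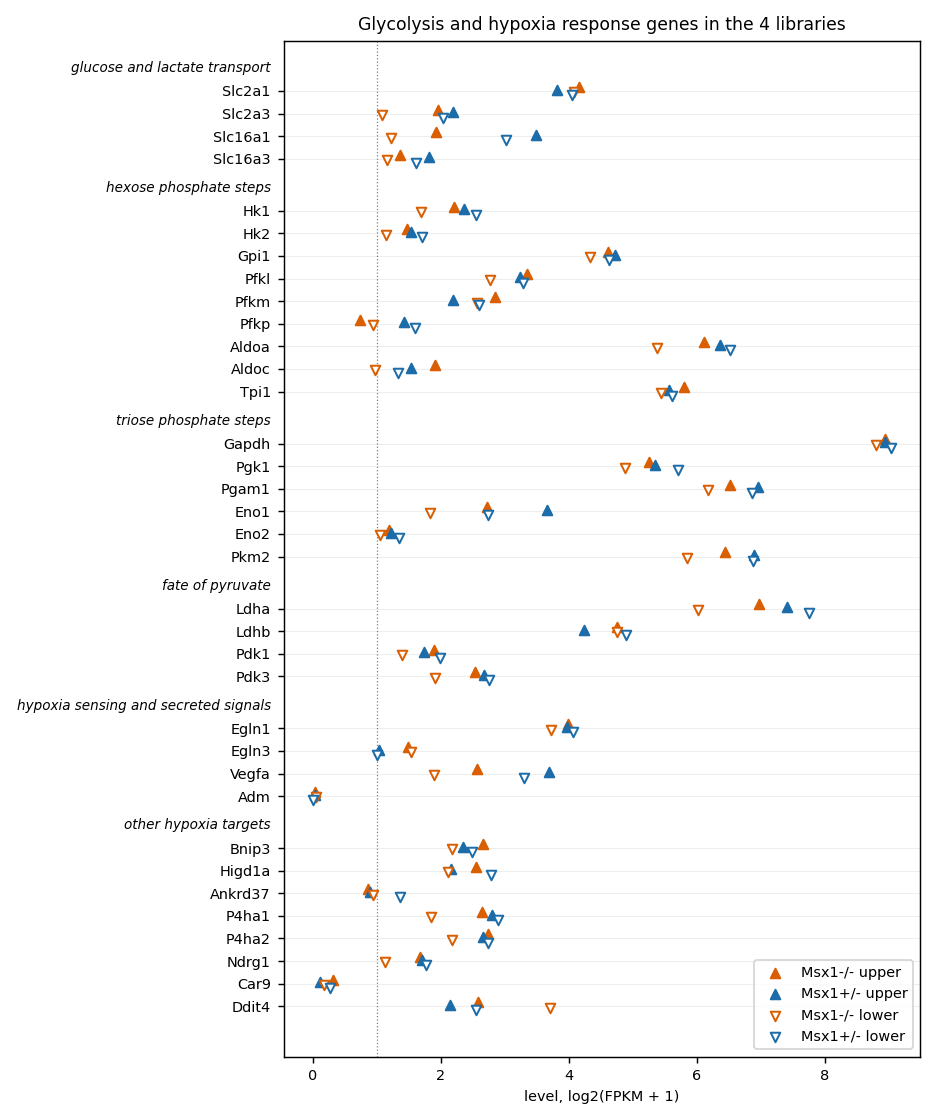
Level of each of the 35 members in the 4 libraries, as log2(FPKM + 1) on the x axis, grouped by role. Orange marks Msx1-/- and blue Msx1+/-, filled triangles upper and open triangles lower molars, and the dotted line marks 1 FPKM. Gapdh lies far to the right in all 4 libraries, while Adm and Car9 lie near 0.

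The hexose phosphate steps carry glucose to the triose phosphates. Aldoa, the aldolase that splits the 6-carbon sugar and the most abundant member of this group, passed the size rule in lower molars when its transcript entries were summed. Aldoa had 68.3 and 40.7 FPKM in Msx1-/- upper and lower molars, against 81.3 and 90.8 FPKM in Msx1+/- upper and lower molars. The differences were -0.25 in upper and -1.14 in lower molars, and -0.75 in lower molars relative to the median of all genes. The entry NM_007438 carried that drop, with 38.8 and 5.19 FPKM in Msx1-/- upper and lower molars against 45.8 and 48.0 FPKM in Msx1+/- upper and lower molars. The entry NM_001177308 had 29.5 and 35.1 FPKM in Msx1-/- upper and lower molars, against 34.5 and 41.6 FPKM in Msx1+/- upper and lower molars. With the single entry of highest mean level in place of the sum, the lower-molar difference of Aldoa was -0.24.

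None of the other 8 hexose phosphate members passed the size rule in either jaw. The widest gap was that of Hk1 in lower molars. Hk1 and Hk2, the hexokinases that trap glucose in the cell, had differences of -0.15 and -0.07 in upper and -0.86 and -0.56 in lower molars. Gpi1, which turns glucose 6-phosphate into fructose 6-phosphate, had -0.10 in upper and -0.29 in lower molars. Tpi1, which interconverts the triose phosphates, had 0.23 and -0.17, and Aldoc, the aldolase typical of brain, had 0.38 and -0.36. These 5 genes averaged between 1.79 and 47.8 FPKM over the libraries.

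The 3 phosphofructokinase genes, which encode the enzyme of the committed step of glycolysis, did not share a pattern. Pfkm, the muscle type, had 6.17 and 4.94 FPKM in Msx1-/- upper and lower molars, against 3.58 and 5.03 FPKM in Msx1+/- upper and lower molars. Pfkl, the liver type, had 9.16 and 5.78 FPKM in Msx1-/- upper and lower molars, against 8.43 and 8.79 FPKM in Msx1+/- upper and lower molars. Pfkp, the platelet type, had 0.680 and 0.920 FPKM in Msx1-/- upper and lower molars, against 1.70 and 2.01 FPKM in Msx1+/- upper and lower molars. Only Pfkp had both Msx1-/- libraries below both Msx1+/- libraries.

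In the triose phosphate steps, which yield ATP, the only member past the size rule was Pkm2, the pyruvate kinase gene now named Pkm. Pkm2 (mm9 chromosome 9, 59504415 to 59527182) had 85.3 and 56.6 FPKM in Msx1-/- upper and lower molars, against 117 FPKM in Msx1+/- upper and 117 FPKM in Msx1+/- lower molars. Its differences were -0.46 in upper and -1.03 in lower molars, and -0.65 in lower molars relative to the median of all genes. The tables hold 1 transcript entry for it, so the spliced forms of the enzyme were not told apart.

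Gapdh, the glyceraldehyde phosphate dehydrogenase, was the most abundant member. It had 486 and 445 FPKM in Msx1-/- upper and lower molars, against 489 and 524 FPKM in Msx1+/- upper and lower molars, and its differences were -0.01 and -0.24. Pgk1, the first ATP-yielding kinase of the path, had differences of -0.09 in upper and -0.84 in lower molars, and Pgam1, the mutase after it, had -0.44 and -0.69. Eno2, the enolase typical of neurons, averaged 1.31 FPKM and had -0.02 and -0.29.

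Eno1, the general enolase, had 5.63 and 2.57 FPKM in Msx1-/- upper and lower molars, against 11.6 and 5.68 FPKM in Msx1+/- upper and lower molars. Its differences were -0.93 and -0.90, just under the size required, and -0.90 and -0.52 relative to the median of all genes. Those levels hold a small part of the enolase signal. Gm5506, the gene that RefSeq now names Eno1b and whose former names include Eno1, had 112 and 98.4 FPKM in Msx1-/- upper and lower molars, against 114 and 122 FPKM in Msx1+/- upper and lower molars. Reads may be split between these like-named genes, so the Eno1 values are uncertain. Summed with Gm5506, Eno1 had a difference of -0.10 in upper molars and -0.34 in lower molars. Gapdh and other abundant glycolytic genes have many processed copies in the genome, and how reads were shared with those copies was not tested.

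**Figure D3:**
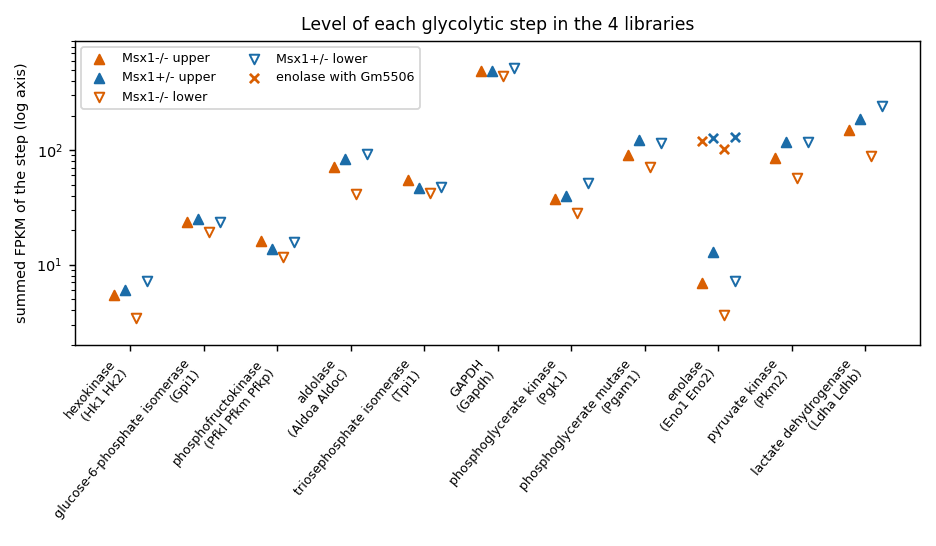
Summed FPKM, on a log axis, of the genes of each of the 11 steps from hexokinase to lactate dehydrogenase in the 4 libraries. Triangles are as in the key, and crosses show enolase with the copy Gm5506 added. Lactate dehydrogenase ranges from 89.6 FPKM in Msx1-/- lower molars to 243 FPKM in Msx1+/- lower molars, while the GAPDH step stays between 445 and 524 FPKM.

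Added up, the 17 glycolytic enzyme genes came to 1026 and 812 FPKM in Msx1-/- upper and lower molars, against 1143 and 1244 FPKM in Msx1+/- upper and lower molars. Gapdh alone made up 47.4% and 54.8% of that sum in Msx1-/- upper and lower molars, against 42.7% and 42.1% in Msx1+/- upper and lower molars. The sum was lowest in Msx1-/- lower molars, where Gapdh held its greatest share. Total FPKM over all genes was lowest there too, at 148167, against 179435 to 207523 elsewhere. On the log2(FPKM + 1) scale, the sum's lower-molar gap between genotypes was -0.61, beside an all-gene median of -0.39. For upper molars these values were -0.16 and -0.03. The sum leaves out Gm5506, at 98.4 to 122 FPKM, and adding it would make every Gapdh share smaller. The GAPDH step was the highest of the 11 steps in all 4 libraries, with no overlap with the range of the step after it. With enolase taken without Gm5506, lactate dehydrogenase came next in all 4 libraries, and its range overlapped that of phosphoglycerate mutase. With Gm5506 added, enolase (102 FPKM) stood above lactate dehydrogenase (89.6 FPKM) in Msx1-/- lower molars. Hexokinase, the entry step, was the lowest step in all 4 libraries, between 3.44 and 7.14 FPKM, and its range overlapped that of enolase taken without Gm5506.

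At the fate of pyruvate, Ldha was lower in Msx1-/- lower molars. Ldha, the lactate dehydrogenase subunit that favours lactate formation (mm9 chromosome 7, 54101174 to 54110997), had 124 and 63.6 FPKM in Msx1-/- upper and lower molars. It had 168 and 214 FPKM in Msx1+/- upper and lower molars, so the Msx1-/- libraries lay below both Msx1+/- libraries. The differences were -0.44 in upper and -1.73 in lower molars, and -1.35 in lower molars relative to the median of all genes. Ldhb, the subunit that favours pyruvate formation, had 25.9 and 25.97 FPKM in Msx1-/- upper and lower molars, against 17.9 and 28.8 FPKM in Msx1+/- upper and lower molars. Its 2 genotypes overlapped, with differences of 0.51 and -0.14. Pdk1 and Pdk3, kinases that close the entry of pyruvate into mitochondria, had differences of 0.15 and -0.15 in upper molars and -0.58 and -0.85 in lower molars.

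**Figure D4:**
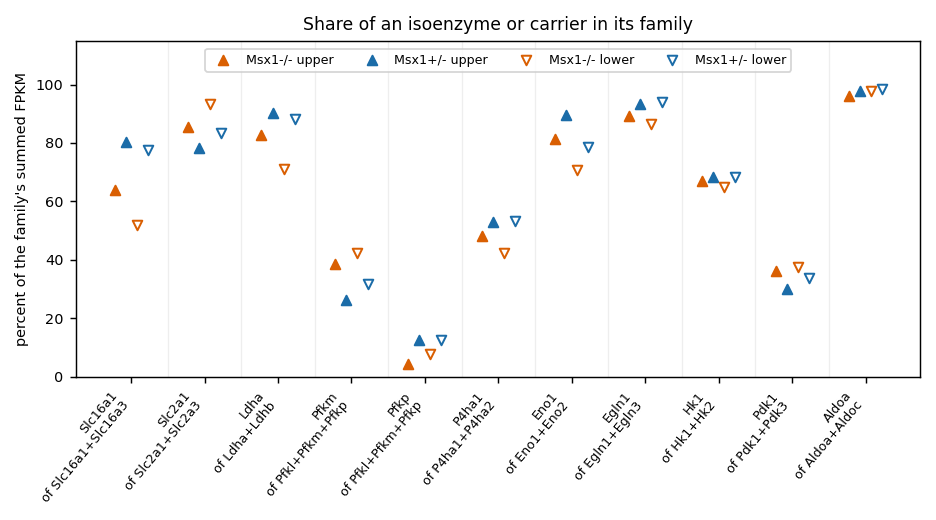
Percent of a family's summed FPKM that belongs to 1 of its genes, for 11 genes in the 4 libraries. Orange marks Msx1-/- and blue Msx1+/-, filled triangles upper and open triangles lower molars. The Msx1-/- share of Slc16a1 is 64.0% and 51.9%, below 80.2% and 77.6% in Msx1+/- molars, and the Msx1-/- share of Pfkm lies above its Msx1+/- share in each jaw.

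Shares within a family do not depend on the scale between libraries. Of 10 families, 2 had a share that moved by at least 10 percentage points in the same direction in both jaws. Slc16a1 made up 64.0% and 51.9% of the monocarboxylate pair in Msx1-/- upper and lower molars, against 80.2% and 77.6% in Msx1+/- upper and lower molars. Pfkm made up 38.5% and 42.4% of phosphofructokinase in Msx1-/- upper and lower molars, against 26.1% and 31.7% in Msx1+/- upper and lower molars. Msx1-/- molars thus had a smaller share of Slc16a1 and a larger share of Pfkm in each jaw. With the single highest transcript entry of each gene, the lower-molar change of Pfkm was 4.48 points in place of 10.7. By that measure P4ha1 moved by -11.5 and -11.9 points in upper and lower molars, in place of -4.96 and -10.7. Ldha made up 82.7% and 71.0% of the lactate dehydrogenase pair in Msx1-/- upper and lower molars, against 90.4% and 88.1% in Msx1+/- upper and lower molars. Its change was -7.70 points in upper and -17.1 points in lower molars, so it passed 10 points in 1 jaw. Slc2a1 gained 6.998 and 10.2 points against Slc2a3.

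Among the oxygen sensors and secreted signals, Vegfa (mm9 chromosome 17, 46153943 to 46169326) had 4.93 and 2.74 FPKM in Msx1-/- upper and lower molars, against 11.9 and 8.84 FPKM in Msx1+/- upper and lower molars. Both Msx1-/- libraries were below both Msx1+/- libraries. The differences were -1.12 in upper and -1.40 in lower molars, and -1.09 and -1.01 relative to the median of all genes. Of its 6 transcript entries, NM_001110267 had the highest mean, with 2.26 and 1.08 FPKM in Msx1-/- upper and lower molars against 7.69 and 4.51 FPKM in Msx1+/- upper and lower molars. NM_009505 ran the other way, with 1.37 and 0.835 FPKM in Msx1-/- upper and lower molars against 0.0980 and 0.652 FPKM in Msx1+/- upper and lower molars. How Cufflinks divides reads between overlapping entries affects such values.

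The prolyl hydroxylases did not reach the size rule. Egln1, the main hydroxylase of the alpha subunit, had 14.8 and 12.2 FPKM in Msx1-/- upper and lower molars, against 14.6 and 15.7 FPKM in Msx1+/- upper and lower molars. Egln3, a hydroxylase that is itself induced by hypoxia, had 1.81 and 1.91 FPKM in Msx1-/- upper and lower molars, against 1.05 and 1.001 FPKM in Msx1+/- upper and lower molars. The Msx1-/- libraries were thus above both Msx1+/- libraries for Egln3, with differences of 0.46 and 0.54. Adm had at most 0.0429 FPKM and was listed at 0 in Msx1+/- lower molars.

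Of the other hypoxia targets, Ddit4 was the one member that was higher. Ddit4, a stress-induced inhibitor of mTORC1 signalling (mm9 chromosome 10, 59412423 to 59414518), had 4.98 and 12.0 FPKM in Msx1-/- upper and lower molars. It had 3.44 and 4.86 FPKM in Msx1+/- upper and lower molars. The differences were 0.43 in upper and 1.15 in lower molars, and 0.46 and 1.54 relative to the median of all genes. P4ha1, a collagen prolyl hydroxylase subunit, had 5.26 and 2.61 FPKM in Msx1-/- upper and lower molars, against 5.998 and 6.43 FPKM in Msx1+/- upper and lower molars. Its differences were -0.16 in upper and -1.04 in lower molars, and -0.65 in lower molars relative to the median of all genes.

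The remaining hypoxia targets stayed under the size rule in both jaws. P4ha2, the sister subunit of P4ha1, had differences of 0.08 in upper and -0.55 in lower molars. Bnip3, a receptor for removal of mitochondria, had 0.31 and -0.30, and Higd1a, a mitochondrial protein of the respiratory chain, had 0.39 and -0.67. Ankrd37, an ankyrin repeat protein, had -0.03 and -0.42, and Ndrg1, a stress-responsive gene, had -0.04 and -0.63. Car9 ranged from 0.0886 FPKM in Msx1+/- upper molars to 0.253 FPKM in Msx1-/- upper molars.

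A limma fit over all 4 libraries, with genotype and jaw as additive terms and 1 residual degree of freedom, was set beside these values. It used the deposited scale with no rescaling, so the lower-molar shift of the whole table enters its genotype differences. The fit takes the jaws as repeats of a genotype. It called 1.19% of kept genes higher and 4.37% lower in Msx1-/- at a Benjamini-Hochberg adjusted p under 0.05. Slc16a1 (adjusted p = 1.57e-06 by limma) and Vegfa (adjusted p = 0.00229 by limma) were the members it called lower, and it called 0 higher. Eno1 came next, with an adjusted p of 0.0541 by limma, on its uncertain values without Gm5506. In all, 9 of 33 members (27.3%) had an unadjusted p under 0.05 by limma, beside 15.7% of all kept genes.

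The jaws were compared within each genotype, as upper minus lower. In Msx1-/- molars 1 member, Ddit4, was lower in the upper jaw, by -1.12, and 0 were higher, where 0.408% of all kept genes were lower and 3.22% higher. In Msx1+/- molars 0 members were lower and 0 higher, beside 0.218% and 1.48% of all genes. The members' median jaw difference was 0.44 in Msx1-/- molars, beside 0.27 for all genes, and -0.09 in Msx1+/- molars, beside -0.08 for all genes. In Msx1-/- molars the highest member differences were those of Ldha (0.95), Aldoc (0.94) and Eno1 (0.89). In Msx1+/- molars they ranged from -0.66 for Ldhb to 0.92 for Eno1, which summed with Gm5506 gave -0.03. The genotype and jaw comparisons share libraries, and Msx1-/- lower molars enter both the lower-molar and the Msx1-/- comparison.

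Upstream of the members, Hif1a was lower in Msx1-/- lower molars. Of 11 kept genes of that list, 0 differed in both jaws, 0 in upper and 2, Hif1a and Siah1a, were lower in lower molars, where 9.43% of all kept genes were lower. Hif1a had 13.3 and 8.53 FPKM in Msx1-/- upper and lower molars, against 20.5 and 20.05 FPKM in Msx1+/- upper and lower molars. Its differences were -0.59 in upper and -1.14 in lower molars, and -0.76 in lower molars relative to the median of all genes, which is under the size rule. Arnt had differences of 0.14 in upper and -0.93 in lower molars, and Epas1, another alpha subunit, had -0.43 and -0.50. Vhl, which marks the alpha subunit for destruction, had -0.11 and -0.35, and Hif1an, an asparagine hydroxylase of the alpha subunit, had 0.06 and -0.23. The list's median differences were -0.11 in upper and -0.37 in lower molars, near those of all genes.

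Of 26 other kept hypoxia-responsive genes, 3 were lower in Msx1-/- molars of both jaws and 0 higher. Over all kept genes those shares were 1.59% and 0.399%. Taken by jaw, 3 of the 26 were lower in upper and 7 in lower molars, where 3.26% and 9.43% of all kept genes were lower. In either jaw 0 were higher. The genes lower in both jaws were Bhlhe40, Errfi1 and Igfbp3. Bhlhe40, a transcriptional repressor, had 2.11 and 0.406 FPKM in Msx1-/- upper and lower molars, against 9.85 and 8.67 FPKM in Msx1+/- upper and lower molars. Errfi1, a feedback inhibitor of the EGF receptor, had 3.16 and 2.29 FPKM in Msx1-/- upper and lower molars, against 13.2 and 14.7 FPKM in Msx1+/- upper and lower molars. Igfbp3, which binds insulin-like growth factors, had 18.9 and 28.6 FPKM in Msx1-/- upper and lower molars, against 43.2 and 92.0 FPKM in Msx1+/- upper and lower molars. All 3 also respond to signals other than hypoxia. The median of that list was -0.02 in upper and -0.42 in lower molars, beside -0.03 and -0.39 for all genes.

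Of 53 kept genes in 7 neighbouring pathways, 0 differed in the same direction in both jaws, where 1.59% of all kept genes were lower and 0.399% higher in both. That count was 0 of 8 for other glycolysis enzymes, 0 of 8 for the pentose phosphate pathway and 0 of 8 for glycogen metabolism. It was 0 of 11 for pyruvate entry to mitochondria, 0 of 6 for the NADH shuttles, 0 of 6 for other sugar and lactate carriers and 0 of 6 for receptors of VEGF and adrenomedullin. Bsg, the chaperone that brings MCT1 to the membrane, had 65.6 and 66.9 FPKM in Msx1-/- upper and lower molars, against 74.6 and 94.1 FPKM in Msx1+/- upper and lower molars. In a single jaw 5 of these genes were lower, 2 in upper and 3 in lower molars. Of all kept genes, 3.26% and 9.43% were lower in those jaws. In upper molars the genes were Brp44l, a subunit of the mitochondrial pyruvate carrier (-1.46), and Rpe, of the pentose phosphate pathway (-1.41). In lower molars they were Nrp2, a co-receptor of VEGF (-1.99), Mdh2, of the malate shuttle (-1.21), and Pgd, of the pentose phosphate pathway (-1.02). The median differences of these 7 lists lay between -0.25 and 0.19 in upper molars and between -0.57 and -0.16 in lower molars.

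Markers of cell types and of tissue handling moved between the libraries too, and their part in the results was not tested. Dental mesenchyme markers were present, with a summed level of 667 and 487 FPKM in Msx1-/- upper and lower molars against 844 and 759 FPKM in Msx1+/- upper and lower molars. That sum includes Msx1 itself. Of 12 such markers, 3 (Dlx2, Runx2 and Prrx2) were lower in both jaws and 0 higher, beside 1.59% and 0.399% of all kept genes. Pax9 went the other way, with differences of 0.57 in upper and 0.51 in lower molars. Lhx8, Msx2, Prrx1 and Barx1 differed in sign between the jaws. The list's median was -0.40 in upper and -0.74 in lower molars, beside -0.03 and -0.39 for all genes. Pericyte markers, without Pdgfrb, whose estimate had failed in at least 1 library, summed to 20.2 and 16.7 FPKM in Msx1-/- upper and lower molars against 31.0 and 31.2 FPKM in Msx1+/- upper and lower molars. Endothelium markers summed to 55.7 and 54.6 FPKM in Msx1-/- upper and lower molars against 71.4 and 66.8 FPKM in Msx1+/- upper and lower molars. The endothelium list did not move one way: its median difference was -0.08 in upper molars and -0.22 in lower molars, beside -0.03 and -0.39 for all genes. In upper molars Egfl7, with 9.66 FPKM in Msx1-/- against 22.6 FPKM in Msx1+/-, made up most of the gap between the sums, while Tie1, Cldn5 and Tek were at higher levels in Msx1-/-. In both jaws together, 0 of 10 endothelium and 0 of 4 pericyte markers passed the size rule.

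Red cell, epithelial and immediate-early transcripts differed as well. Erythroid markers summed to 632 and 811 FPKM in Msx1-/- upper and lower molars against 920 and 1184 FPKM in Msx1+/- upper and lower molars, with 0 of 8 passing in both jaws. Epithelium markers summed to 57.9 and 77.1 FPKM in Msx1-/- upper and lower molars against 33.8 and 54.8 FPKM in Msx1+/- upper and lower molars, with 1 of 8, Krt15, higher in both. Immediate-early and stress genes summed to 94.4 and 76.3 FPKM in Msx1-/- upper and lower molars against 438 and 336 FPKM in Msx1+/- upper and lower molars. Of 11 kept genes of that list, 5 (Egr1, Egr2, Egr3, Fosl2 and Ier2) were lower in both jaws and 0 higher. Over all kept genes those shares were 1.59% and 0.399%. Egr1 had 2.47 and 2.72 FPKM in Msx1-/- upper and lower molars, against 167 and 113 FPKM in Msx1+/- upper and lower molars. With Egr2 and Egr3 it made up most of the gap between the sums. Jund, with -0.18 in upper and -0.24 in lower molars, and Ier3, with 0.14 and -0.21, moved little. No marker list had a gene at 0 in every library.

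The other marker lists did not share a direction. Cartilage markers summed to 14.3 and 21.2 FPKM in Msx1-/- upper and lower molars. In Msx1+/- upper and lower molars they summed to 6.84 and 5.69 FPKM. The 3 kept cartilage genes, Col2a1, Sox9 and Hapln1, each had a difference above 0 in both jaws. Osteoblast markers had 2 genes higher and 1 lower in both jaws of 7, and cartilage markers had 1 higher of 3. Over all kept genes, 0.399% were higher and 1.59% lower in both. Macrophage markers had 0 of 11 in either direction, skeletal muscle markers 0 of 2 and neuron and glia markers 0 of 2.

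The core letters bound by hypoxia-inducible factors were searched on both strands of the RefSeq promoter windows of build GRCm38.p6. Of the 35 members, 33 had a window, 1 of them (Pkm2) through its current symbol Pkm, which gave 46 windows. Slc2a3 and Ndrg1 had none. ACGTG lay in 26 windows, or 56.5%, against 19.6% of all 32851 windows and 26.04% of the 9691 windows of kept genes. Those 9691 windows cover the 7557 kept genes found by exact name, with no search through former names. The member windows include those of Adm and Car9, which were not kept. GCGTG lay in 60.9% of member windows, against 32.4% of all windows and 52.0% of those of kept genes. Either motif lay in 80.4% of member windows, against 43.8% and 63.6%. The median number of CG dinucleotides per window was 20.5 for members, 7 for all windows and 21 for kept genes. The members were named as hypoxia and glycolysis genes, several of them known for such sites, so the share is a description of the list.

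Members on either side of the size rule held the letters. Slc2a1, Gapdh and Egln1, which stayed under the size rule, held an ACGTG match as Slc16a1 and Ldha did. The outermost window of Vegfa held neither motif. Its other annotated start lies 7214 bases downstream, and both matches there fall in a coding exon of the GENCODE annotation. The ACGTG matches of Pkm2 lay in the window of a start 651 bases downstream of the outermost one, inside an untranslated exon. A match is not a measured binding site.

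**Figure D5:**
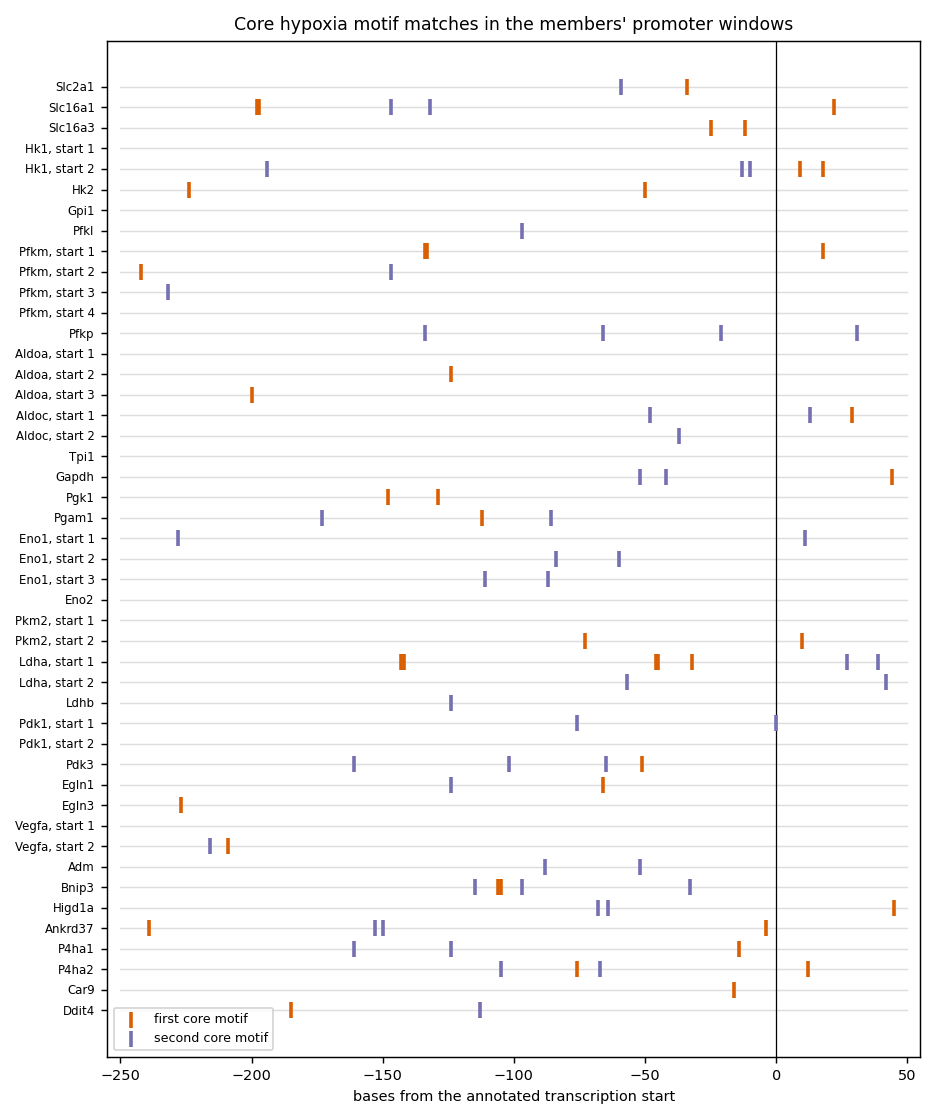
Position of each motif match in the 46 promoter windows of 33 members, in bases from the annotated start, which is at 0. Orange ticks mark the first core motif (the one with A) and purple ticks the second (the one with G), and genes with several annotated starts have a line for each. Ldha start 1 holds 5 ticks of the first motif, more than any other member window, and the lines of Gpi1, Tpi1 and Eno2 are empty.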

How the data were processed

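Each of the 4 libraries is 1 group (genotype by jaw) from laser-cut molar mesenchyme, amplified with NuGEN Ovation RNA-Seq v2, per the labels' protocols. Reads were aligned to mm9 with Bowtie 0.12.7 and TopHat 1.4.1, per the submitters' processing notes. For Cufflinks a version is not stated in the sources used here. The deposited tables hold, per the file headers, FPKM and a coverage signal for each RefSeq transcript entry, and no read counts, so counting error is unknown.

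FPKM was summed per gene name. Genes with a failed estimate (66) and names of small RNAs (716) were left out, and the 10536 genes averaging 1 FPKM or more were kept. Differences are of log2(FPKM + 1), a scale that understates changes of weak genes. With 1 library per group these differences were not tested. The alternatives were limma 3.58.1 in R 4.3.3, which takes the jaws as repeats, other pseudocounts, filters, scalings and the highest transcript entry. The limma fit was run on simulated data with changes larger than any member's and the same noise level for all genes. The lower-molar shift was not simulated, so that check does not cover changes of the members' size in these libraries. The amplification is not stated to keep strand, so antisense reads were not separated.

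Every member is named. Values per library are given for members past the size rule, the most abundant of each of 6 role groups, and families whose share moved in both jaws. Windows were picked for members lower in both jaws and then those with the lowest relative difference, taken from the jaw where it was smaller in size. Eno1 was passed over for its uncertain levels. Vegfa and Pkm2 were picked and are not printed, because all matches in their picked windows lie in exons, which left Slc16a1 and Ldha. Slc16a1 and Ldha also hold a match in an untranslated exon, at positions 20 and 37. Leaving out Vegfa and Pkm2 was decided after the positions were seen. Gm5506, Bsg, Siah1a, the genes named from neighbouring pathways and the named markers were chosen after their values were seen. The members and lists were chosen with earlier results of these data known.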

Additional observations from a re-analysis of the deposited data

Results flagged for a closer look

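For 4 members the genotype difference had opposite signs in the jaws, on the deposited scale and relative to the median of all genes. The share of all kept genes that meet this rule was not taken, so the count is not a result about the members. Of all kept genes, 54.2% lay below 0 in upper and 82.5% in lower molars. The difference between the jaws was not tested, since each value rests on 1 pair of libraries. Upper minus lower, the genotype difference of Higd1a was 1.06 (0.39 in upper and -0.67 in lower molars). That of Pdk1 was 0.73 (0.15 and -0.58), that of Pfkl 0.64 (0.11 and -0.53) and that of P4ha2 0.64 (0.08 and -0.55). None of these 8 differences reached 1 in size.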

How the results depend on the processing

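The counts of members past the size rule depended most on the pseudocount and on the scale between libraries. With a pseudocount of 0.1, 4 members were lower in upper molars, 11 in lower molars and 4 in both (Slc16a1, Vegfa, Pfkp and Eno1). Of all 10536 kept genes, 495 were then lower in upper and 1707 in lower molars, against 344 and 994 with a pseudocount of 1. The count in both jaws was not taken over all genes under these alternatives. A pseudocount of 0.1 also gave 4 members higher in the upper jaw of Msx1-/- and 1, Eno1, in that of Msx1+/- molars. Of all kept genes, 789 and 231 were higher in those comparisons. With a pseudocount of 5, 0 members were lower in upper molars, 2 in lower molars (Aldoa and Ldha) and 0 in both. Of all kept genes, 141 were then lower in upper and 320 in lower molars. There were 0 members higher in lower molars, beside 29 of all kept genes. In the upper jaw of Msx1-/- molars 0 members were lower, beside 8 of all kept genes. Slc16a1 with this pseudocount had a difference of -0.96 in upper molars and -0.94 in lower molars. Rescaling by the median of ratios left 3 members lower in lower molars. A common total or upper quartile left 2 (Slc16a1 and Ldha) and 1 in both jaws (Slc16a1), with Vegfa at -0.999 or -0.97 in lower molars. Over all kept genes, 370 were lower in lower molars by the median of ratios, 313 with a common total and 290 with a common upper quartile. A common total also put Eno1 past the rule, at 1.02 between the jaws of Msx1+/- molars. Of all kept genes, 197 were higher in that comparison. Summing Eno1 with Gm5506, an alternative chosen after seeing the data, left the counts as they were. Over the differences of single members and these alternatives, 1095 kept their side of the rule, 13 passed it, 20 fell short and 0 passed it with the opposite sign. Many of the 1095 could not change, so the tally does not measure robustness. The filters leave a member's value as it was, and the sum with Gm5506 alters only Eno1. The highest transcript entry leaves members with 1 entry unchanged. The labels give no replicate numbers to pair by, and the limma fit sets the genotypes against each other within each jaw. The pooled, amplified tissue, the lack of replicates and the lack of read counts limit how firmly any difference below the abundant genes can be read.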
